A study of Mus musculus with 10 samples.

Results

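Interferon-stimulated genes are the genes that a cell switches on when it senses interferon, a cytokine released on viral infection or other immune alarm. The set described here holds 35 listed genes, and 33 of them were found on the array as a probe set whose platform annotation gave exactly 1 gene symbol equal to that gene. Where a gene had several such probe sets, the one with the highest mean log2 signal over all arrays stood for it. The 33 genes were part of 18194 genes named in this way, and 30 of them were bright enough to be tested, among 12196 tested genes. Isg15 and Ifi44 had no such probe set and were not analysed here. Zbp1, Mx1 and Mx2 were measured but lay below the signal filter described further on.

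Kidneys came from male C57BL/6 mice aged 30 months, with 5 mice on a control diet and 5 under long-term calorie restriction. No transgene, deletion or drug is named in the labels for either group, and the degree and length of the restriction were not stated in the labels used here. Each mouse was measured on 1 Affymetrix array, and the values are MAS5 signals, an intensity per probe set on a linear scale. The comparison asked whether the interferon response genes of an old kidney stood at another level under calorie restriction.

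Type I interferons bind the receptor chains Ifnar1 and Ifnar2, interferon gamma binds Ifngr1 and Ifngr2, and the kinases Jak1, Jak2 and Tyk2 then phosphorylate STAT proteins. Type I signalling assembles a complex that holds Stat2 and Irf9 and binds the interferon-stimulated response element, whereas interferon gamma acts chiefly through the gamma-activated site. The products of the induced genes block viral translation, degrade RNA, attack pathogen vacuoles or sense further nucleic acid, and a few of them, such as Irf7, feed the response forward.

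Promoters are shown for 8 of these genes whose signals carry results below and whose windows held a motif described here. Irf1 and Ifit2 had the smallest p-values of the set. Ifit1, Ifit3 and Bst2 were highest in the same calorie-restricted mouse, and Gbp2, Gbp3 and Igtp were highest in another. Other genes highest in these mice, such as Irf7 and Samd9l, had neither motif and are not shown. Each stretch is 80 bases long, written 5′ to 3′ along the strand of the gene, and was taken from RefSeq promoter windows on the GRCm38.p6 build that run from 250 bases before to 50 bases after the gene's start. Capitals mark 2 motifs searched on both strands: the core of the response element, which is GAAA and a second GAAA separated by any 2 bases (or the reverse complement, TTTC and TTTC), and the gamma-activated site TTCNNNGAA, which reads the same on both strands. In Bst2 and Gbp3 neighbouring motifs overlap, so a run of capitals can hold more than 1 match.
Irf1 (chr11:53769888-53769967, plus strand, gamma-activated site): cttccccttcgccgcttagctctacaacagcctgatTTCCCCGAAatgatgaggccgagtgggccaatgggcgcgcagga
Ifit2 (chr19:34550444-34550523, plus strand, gamma-activated site): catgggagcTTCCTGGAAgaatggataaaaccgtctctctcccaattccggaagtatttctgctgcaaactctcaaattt
Ifit1 (chr19:34640769-34640848, plus strand, response element cores): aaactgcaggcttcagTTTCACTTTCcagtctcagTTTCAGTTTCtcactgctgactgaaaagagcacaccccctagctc
Ifit3 (chr19:34583372-34583451, plus strand, response element cores): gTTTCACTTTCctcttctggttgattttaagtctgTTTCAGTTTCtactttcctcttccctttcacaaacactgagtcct
Bst2 (chr8:71537552-71537631, minus strand, both motifs): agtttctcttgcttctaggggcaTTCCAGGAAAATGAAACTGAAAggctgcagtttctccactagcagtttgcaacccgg
Gbp2 (chr3:142620569-142620648, plus strand, response element core): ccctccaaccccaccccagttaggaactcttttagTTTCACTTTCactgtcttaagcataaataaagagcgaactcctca
Gbp3 (chr3:142559970-142560049, plus strand, response element cores): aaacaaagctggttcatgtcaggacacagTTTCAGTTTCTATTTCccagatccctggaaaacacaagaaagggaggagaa
Igtp (chr11:58199487-58199566, plus strand, both motifs): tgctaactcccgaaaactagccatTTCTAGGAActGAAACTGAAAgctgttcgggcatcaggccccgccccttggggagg

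A promoter window of 300 bases was found for 25 of the 35 genes. The response element core was present in 13 of these 25, or 52.0%, against 3.99% of 27025 genes with a window in the same table. The gamma-activated site was present in 5 of 25, or 20.0%, against 9.55% of all genes. Both motifs were present in 2 members, Bst2 and Igtp, and 9 members had neither in this window. A match is a description of the letters and not a measured binding site. Of the measured members with a window, calorie-restricted replicate 4 was highest for 4 of 12 with a core and 4 of 11 without. Calorie-restricted replicate 2 was highest for 3 of 12 and 3 of 11. Irf7, Irf9, Oasl2 and Xaf1, highest in replicate 4, and Samd9l, Dtx3l and Trim25, highest in replicate 2, had neither motif. A link between motifs and these peaks was not tested. Ifit1 and Ifit3, printed above, each held paired cores, whereas neither window listed for their neighbour Ifit2 held a core.

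None of the 30 tested genes passed the threshold in either direction. The test was limma on log2 signal, calorie restricted minus control, with Benjamini-Hochberg adjustment over all 22517 probe sets tested and an adjusted p under 0.05 as the threshold. Among all 12196 tested genes, 3.08% passed as higher and 3.02% as lower in calorie-restricted kidney. At an unadjusted p under 0.05 there were 7 members, with Ddx58, Ifit1, Rsad2 and Samd9l higher and Irf1, Stat2 and Ifit2 lower in calorie-restricted kidney. At that level 12.6% of all tested genes were higher and 13.8% lower. The lowest adjusted p of the set was 0.0595 and the highest 0.983. Ifit2 and Irf1 lay close to the threshold: both passed as lower with array weights and with median centring, and no member passed with quantile normalization or without the intensity trend.

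The members were spread around no difference. The median log2 difference of the 33 genes was 0.07, with quartiles at -0.08 and 0.28, against a median of -0.01 and quartiles at -0.20 and 0.18 over all tested genes. Of the 33, 19 were above 0 and 14 below. The largest single differences were -0.59 for Ifit2 and 0.58 for Ifit1, a neighbouring gene of the same family. The standard errors of the tested members ran from 0.10 to 0.34, and the 95% interval of the difference lay within a log2 change of -1 to 1 for 26 of 30. The other 4 were Irf7, Dhx58, Ifit1 and Gbp2, whose intervals reached past a 2-fold change.

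**Figure D1:**
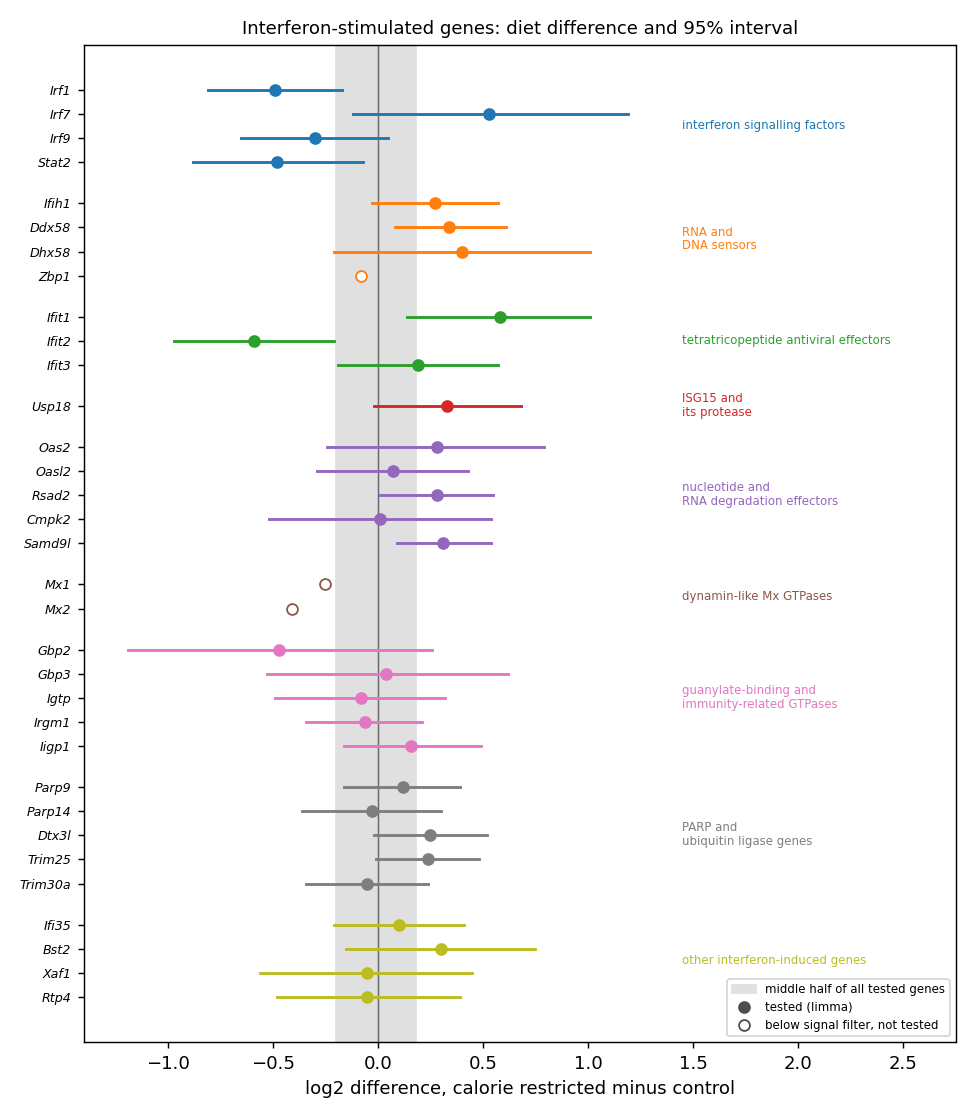
Log2 difference in signal, calorie restricted minus control (x axis), for each of the 33 measured genes (y axis, coloured by role); filled points are limma estimates with 95% intervals (n = 5 per group), open points are the 3 genes below the signal filter, and the grey band spans the quartiles of all tested genes. Most points lie near 0, Ifit2, Irf1 and Stat2 lie lowest among the tested genes with intervals below 0, and Ifit1 lies highest.

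The factors that relay the interferon signal leaned down in 3 of 4 cases, and none passed the test. Irf1, a transcription factor induced chiefly by interferon gamma, had signals of 900.5, 970.4, 1143, 1192 and 1285 on the control arrays and 589, 945, 669, 905 and 824 on the calorie-restricted ones. The restricted values all lay under the control median, and the groups overlapped through calorie-restricted replicates 2 and 4. The log2 difference was -0.49 ± 0.15 (SE, n = 5 per group, limma adjusted p = 0.0625). Without calorie-restricted replicate 4 the adjusted p was 0.0459, without control replicate 1 it was 0.0498, and with each of the other 8 arrays left out it was 0.0579 to 0.143. Stat2, a transcription factor of type I signalling, differed by -0.48 ± 0.19 (adjusted p = 0.133), and Irf9, the DNA-binding subunit of that complex, by -0.30 ± 0.16 (adjusted p = 0.262).

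Irf7, the factor that amplifies type I interferon production, was the exception. Its signals were 536, 475, 694.5, 629 and 601 in control and 852, 551.5, 493.5, 2173 and 846 in calorie-restricted kidney. Replicate 4 of the restricted mice stood far above every other array, while replicates 2 and 3 lay inside the control range. Calorie restricted minus control, the log2 difference was 0.53 ± 0.31 (adjusted p = 0.285), and without that mouse it was 0.19.

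The sensors of foreign nucleic acid were mostly above 0. Ddx58, which encodes the RNA helicase RIG-I, had signals of 848, 775, 778, 821 and 947 in control kidney. It had 1213, 1159, 1187, 851 and 922 in calorie-restricted kidney, so replicates 1 to 3 stood above all controls and replicates 4 and 5 among them. This gave a log2 difference of 0.34 ± 0.12 (adjusted p = 0.101), and a second tested probe set of the gene differed by -0.14 ± 0.18. Without calorie-restricted replicate 4 the adjusted p was 0.0451 at a difference of 0.42, and it was 0.0678 to 0.217 with each of the other 9 arrays left out. Replicates 1 to 3 of the restricted group were also the arrays on which Gapdh and Actb gave the highest ratio of 3′ over 5′ control signal, a sign of shorter RNA or less complete labelling. That log2 ratio was 2.21, 2.01 and 1.75 on them, 1.24 and 1.16 on replicates 4 and 5, and 0.761 to 1.39 on the controls. Adjusted for that ratio, the Ddx58 difference was 0.08, and between replicates 4 and 5 of each group alone it was 0.01; the part of RNA quality in this result was not tested further.

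Ifih1, which encodes the long double-stranded RNA sensor MDA5, differed by 0.27 ± 0.14 (adjusted p = 0.240), with all 5 restricted mice above the control median. Dhx58, which encodes the regulator LGP2, differed by 0.40 ± 0.28 (adjusted p = 0.395), again with 5 of 5 above. Its other probe sets, too dim to test, differed by -0.04 and -0.09, and the mean over its probe sets was 0.09. Replicates 4 and 5 alone gave 0.06 for Dhx58. In Dhx58 a single control mouse, replicate 4, was higher than every other array at 231. Zbp1, a sensor of Z-form nucleic acid, was not tested and its difference was -0.08. Its other probe set, dimmer still, differed by 0.64, and the mean over its probe sets was 0.28.

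The Ifit genes, whose products carry tetratricopeptide repeats and bind viral or unmodified RNA, went apart. Ifit2 had signals of 281.2, 382.8, 477.7, 382.3 and 305.7 in control kidney and 203.9, 258.4, 188.7, 280.0 and 280.8 in calorie-restricted kidney. It was the only 1 of 33 members whose groups did not overlap, and the gap between the lowest control and the highest restricted mouse was under 1 signal unit. Over all tested genes, 3.69% had all restricted values below all controls and 3.80% above, and no member was of the latter kind. The log2 difference of Ifit2 was -0.59 ± 0.18 (adjusted p = 0.0595); it was -0.38 after adjustment for the 3′/5′ ratio and -0.29 between replicates 4 and 5 alone. Without any 1 of calorie-restricted replicate 4, calorie-restricted replicate 5 and control replicate 1, the adjusted p was 0.0476, 0.0432 and 0.0442, and with each of the other 7 arrays left out it was 0.0651 to 0.136.

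Ifit1 lay on the other side. Its signals were 234, 281, 286, 305 and 282.5 in control and 532.5, 298.5, 344, 655 and 333 in calorie-restricted kidney. The controls were tightly grouped, all restricted mice were above the control median, and replicate 2 fell among the controls. Between the diets the log2 difference was 0.58 ± 0.20 (adjusted p = 0.0955). Ifit3 had signals of 706, 689, 881, 530.1 and 624 in control and 941, 561, 652, 1035 and 757 in restricted kidney, with both groups overlapping widely. Its log2 difference was 0.19 ± 0.18 (adjusted p = 0.536).

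The log2 difference of Ifit1 minus Ifit2 within each array, chosen after these values were seen and given without a test, ran from -0.74 to -0.11 in control and from 0.21 to 1.38 in calorie-restricted kidney. These genes had the highest and the lowest difference of the set, so a mean difference of their ratio between the diets was built into the choice. The choice also favoured groups that do not overlap, and nothing is read from the ratio.

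Usp18, the protease that removes ISG15 from proteins and dampens receptor signalling, had signals of 273, 203, 291, 291 and 239 in control and 367, 278, 294, 425 and 275 in calorie-restricted kidney. All restricted mice were above the control median and the groups overlapped. On the log2 scale the difference was 0.33 ± 0.16 (adjusted p = 0.221).

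All 5 genes of the nucleotide and RNA degradation group were above 0 in the unadjusted fit, with a median log2 difference of 0.28, and none passed. After adjustment for the 3′/5′ ratio the median was 0.21 and Oas2 was at -0.20, and under median centring Oasl2 was at -0.03 and Cmpk2 at -0.09. Samd9l, an antiviral factor that restrains translation, had signals of 4112, 3051, 3720.4, 3062 and 3492 in control and 4359, 4746, 4613, 3887 and 3982 in calorie-restricted kidney. Only control replicate 1 reached into the restricted range. The log2 difference was 0.31 ± 0.10 (adjusted p = 0.0811), and without that control mouse it was 0.37 (adjusted p = 0.0472). With each of the other 9 arrays left out the adjusted p was 0.0595 to 0.182. Rsad2, which encodes viperin, an enzyme that makes a chain-terminating nucleotide, differed by 0.28 ± 0.13 (adjusted p = 0.180), and its other tested probe sets differed by 0.06 ± 0.16 and -0.33 ± 0.31. Oas2, a synthase of the 2-5A signal that activates RNase L, differed by 0.28 ± 0.24, and by -0.33 between replicates 4 and 5 alone. Oasl2, a related protein, and Cmpk2, a mitochondrial nucleotide kinase, differed by 0.07 ± 0.17 and 0.01 ± 0.25.

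The dynamin-like Mx GTPases, which trap viral nucleocapsids, were dim and not tested. Mx1 signals were 90.6, 82.4, 83.2, 119 and 111 in control and 89.6, 53.8, 56.4, 114 and 111 in calorie-restricted kidney, a log2 difference of -0.25 with the groups overlapping. Mx2 lay between 17.0 and 34.5 on every array.

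**Figure D2:**
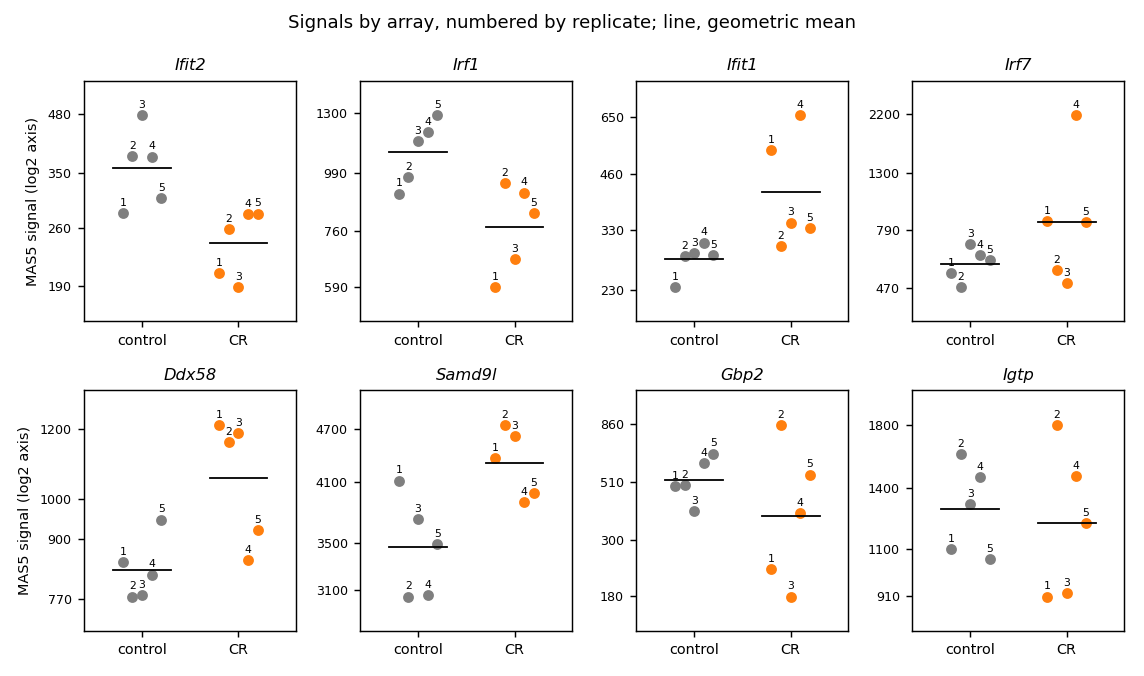
MAS5 signal (y axis, log2 scale) on each control and calorie-restricted (CR) array for 8 genes of the set; points carry the replicate number and lines mark the geometric mean of the 5 mice. Ifit2 separates the diets by a narrow gap, Irf7 and Ifit1 are highest in CR replicate 4, and Gbp2 and Igtp are highest in CR replicate 2.

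Of the 5 interferon gamma-responsive GTPases, none passed the test, and Gbp2, Gbp3 and Igtp were spread more widely among the restricted mice than among the controls. Gbp2, a guanylate-binding protein that coats pathogen vacuoles, had signals of 489.5, 494.5, 390.0, 603 and 659.8 in control and 231, 857, 179.9, 384 and 545 in calorie-restricted kidney. Replicate 2 was higher than every control, and replicates 1, 3 and 4 were lower than every control. Calorie restricted minus control, the log2 difference was -0.47 ± 0.34 (adjusted p = 0.403). An x_at probe set of Gbp2, a type that can bind related transcripts, differed by 0.15 ± 0.29.

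Gbp3, its chromosomal neighbour, had signals of 278, 379, 510.3, 489 and 529 in control and 421, 695, 218, 482 and 529 in restricted kidney. Here too replicate 2 was highest and replicate 3 lowest of all arrays. This gave a log2 difference of 0.04 ± 0.27 (adjusted p = 0.937) and changed sign under median centring, where it was -0.05. Igtp, an immunity-related GTPase also called Irgm3, had signals of 1099, 1605, 1316, 1464 and 1054 in control and 908, 1805, 920.4, 1468 and 1217 in restricted kidney. Replicate 2 was again the highest array, and replicates 1 and 3 were the lowest. Between the diets the log2 difference was -0.08 ± 0.19 (adjusted p = 0.817), and it was 0.05 after adjustment for the 3′/5′ ratio. Irgm1 and Iigp1, of the same GTPase family, differed by -0.06 ± 0.13 and 0.16 ± 0.15.

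Among the PARP and ubiquitin ligase genes, Trim25, the ligase that activates RIG-I, had signals of 2493, 2074, 2411, 2566 and 2600.3 in control and 3222, 3381, 2867, 2608 and 2336 in calorie-restricted kidney. Replicates 1 to 4 exceeded the controls and replicate 5 did not. On the log2 scale the difference was 0.24 ± 0.11 (adjusted p = 0.20), its other tested probe sets differed by -0.18 ± 0.10 and 0.14 ± 0.22, and replicates 4 and 5 alone gave -0.07. Dtx3l and Parp9, which form a complex that modifies histones and viral proteins, differed by 0.25 ± 0.13 and 0.12 ± 0.13. After adjustment for the 3′/5′ ratio Dtx3l was at 0.03 and Parp9 at 0.16, and between replicates 4 and 5 alone they were at -0.01 and 0.18. Parp14, a mono-ADP-ribosyltransferase, and Trim30a differed by -0.03 ± 0.15 and -0.05 ± 0.14. Another probe set of Parp14, too dim to test, differed by 0.45, and the mean over its probe sets was 0.21.

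Of the remaining genes, Bst2, which encodes tetherin, a protein that holds budding virions at the cell surface, had signals of 319, 422, 280.5, 446 and 319.6 in control. In calorie-restricted kidney it had 427, 336, 328, 736 and 440.2, with replicate 4 above every other array. The log2 difference was 0.30 ± 0.21 (adjusted p = 0.391). Ifi35 had signals of 2054, 2097, 2466, 3139 and 2918 in control and 3065, 2920.2, 2033, 2884 and 2638 in restricted kidney, with a log2 difference of 0.10 ± 0.14 (adjusted p = 0.689). Its probe set, like that of Trim25, is of the s_at type, which can bind related transcripts, and its other probe sets differed by -0.60 ± 0.24 (adjusted p = 0.137) and 0.15 ± 0.14. Xaf1, a pro-apoptotic factor, and Rtp4, a chaperone of receptor trafficking, both differed by -0.05, with standard errors of 0.24 and 0.20. Another probe set of Rtp4, too dim to test, differed by 1.44, and the mean over its probe sets was 0.69.

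For 15 members a gene had further probe sets, 20 in all, of which 13 were tested. The sign was that of the brightest probe set in 9 of the 20, and none of the 13 tested passed the threshold.

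The members varied more between calorie-restricted mice than between control mice. The median standard deviation of log2 signal was 0.24 over controls and 0.30 over restricted mice, against 0.21 and 0.22 over all tested genes. It was larger in the restricted group for 22 of 33 members, or 66.7%, against 53.3% of tested genes. These are descriptions without a test.

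The highest and lowest values often fell on the same mice. Calorie-restricted replicate 4 had the highest signal of all 10 arrays for 11 of 33 members, or 33.3%, against 7.90% of tested genes. The 11 were Irf7, Irf9, Ifih1, Ifit1, Ifit3, Usp18, Oasl2, Parp9, Bst2, Xaf1 and Rtp4, genes of the signalling, sensing and effector groups. Their margins differed widely. Irf7 was 2173 there and at most 852 elsewhere. By contrast, Irf9 was 494 against 487 in control replicate 4, and Oasl2 was 485 against 463 in control replicate 5. Calorie-restricted replicate 2 had the highest signal for 8 members, or 24.2%, against 12.2% of tested genes, and these were Samd9l, Gbp2, Gbp3, Igtp, Iigp1, Parp14, Dtx3l and Trim25. Calorie-restricted replicate 3 was highest for 0 members and lowest for 9, or 27.3%, against 9.80% of tested genes. Control replicate 2 was likewise highest for 0 members and lowest for 8, or 24.2%, against 12.9%.

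By role, the 5 guanylate-binding and immunity-related GTPases had a mean log2 deviation from their 10-array means of 0.51 in calorie-restricted replicate 2, -0.66 in replicate 3 and 0.11 in replicate 4. For the 4 signalling factors it was 0.50 in replicate 4, where Irf7 stood at 1.63, Irf9 at 0.31, Stat2 at 0.08 and Irf1 at -0.02, and -0.44 in replicate 3. For the 3 Ifit genes it was 0.47 in replicate 4 and -0.24 in replicate 2.

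**Figure D3:**
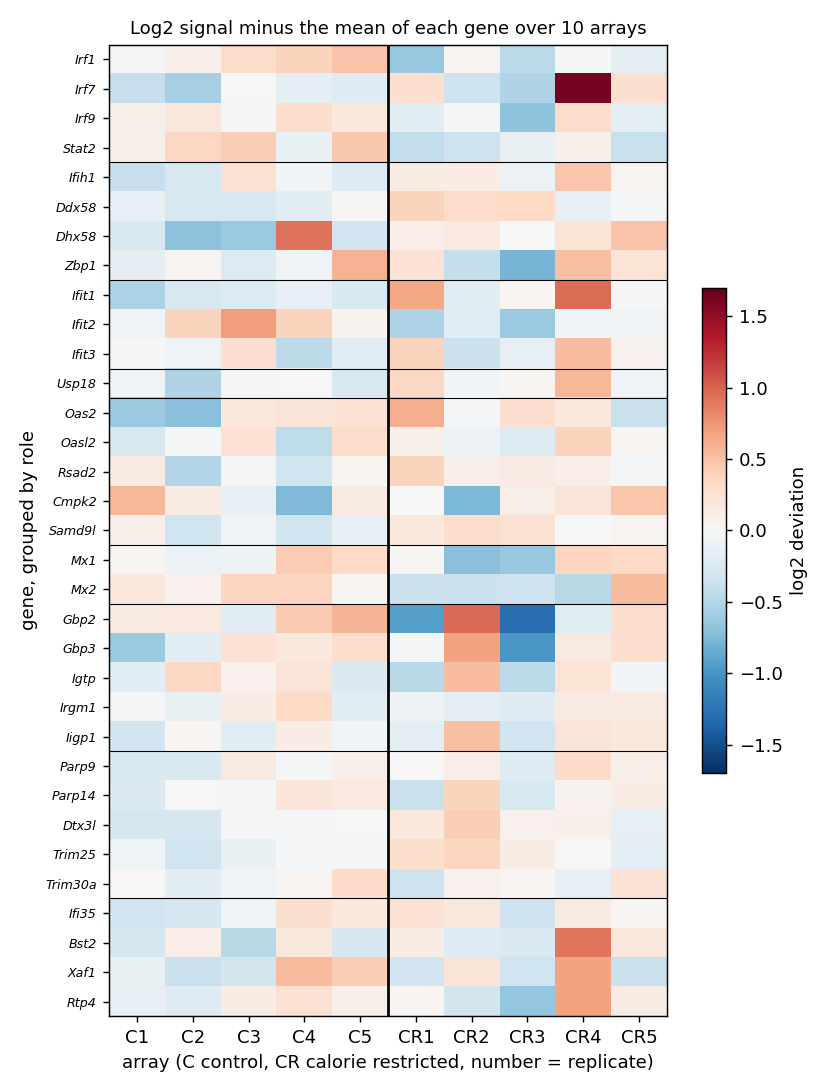
Log2 signal of each of the 33 measured genes (rows, grouped by role) on each array (columns, 5 control C and 5 calorie restricted CR), minus the gene's mean over the 10 arrays, on a colour scale from -1.7 to 1.7. Irf7, Ifit1 and Bst2 are deep red in CR4, Gbp2, Gbp3, Igtp and Iigp1 are red in CR2, and Gbp2 and Gbp3 are deep blue in CR3.

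The same mice were high for some related genes outside the set, which were picked for display after their values were seen. Ifi27 was 9099 in calorie-restricted replicate 4 and 2443 to 4039 on the other arrays. Oas1a was 1499 there and 587 to 783 elsewhere, and Lgals3bp was 5493 against 1897 to 2897. In calorie-restricted replicate 2, Gbp6 was 683 against 181 to 519 elsewhere, and the interferon-induced chemokine Cxcl10 was 498 against 228 to 419. Over all 50 measured interferon-induced genes outside the set, 9 peaked in calorie-restricted replicate 4, or 18.0%, against 7.90% of tested genes. In calorie-restricted replicate 2 there were 6, or 12.0%, near the 12.2% of tested genes, so these genes as a whole did not peak there more often. More of them peaked on control arrays, 10 on replicate 4 (20.0%, against 11.9% of tested genes) and 13 on replicate 5 (26.0%, against 12.2%).

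**Figure D4:**
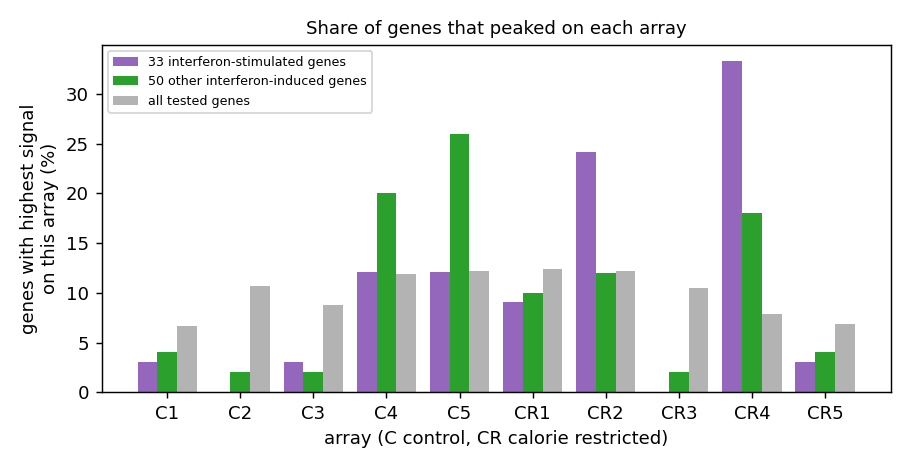
Percent of genes (y axis) whose highest signal of the 10 arrays fell on each array (x axis), for the 33 measured members, the 50 measured interferon-induced genes outside the set, and all tested genes. The members peak most often on CR4 (33.3%) and CR2 (24.2%), whereas the genes outside the set peak most often on C5 (26.0%) and C4 (20.0%).

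The upstream pathway was followed with 110 listed genes outside the set, of which 93 had a probe set and 78 were tested. Of these 78, 3 were higher and 3 lower at the same threshold, or 3.85% each way, near the 3.08% and 3.02% of all tested genes, so the pathway as a whole was not set apart by these counts. Interferon genes themselves were dim: 7 of 11 listed ligands had a probe set and 1, Ifna1, was tested, with a log2 difference of 0.33 ± 0.21 (adjusted p = 0.346). Among 19 tested genes of receptors and JAK-STAT signalling, 1 was higher and 3 were lower. Among 14 tested genes of nucleic acid sensing and relay, 1 was higher and 0 were lower, and among 44 tested interferon-induced genes outside the set, 1 was higher and 0 were lower.

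The receptor chains did not pass the test. Ifngr1, the ligand-binding chain of the interferon gamma receptor, was 1294 to 1462 in control and 863.5 to 1284 in calorie-restricted kidney, so the groups did not overlap. Its log2 difference was -0.38 ± 0.12 (adjusted p = 0.0780). Ifngr2 differed by 0.26 ± 0.13 (adjusted p = 0.220) on its brightest probe set and by -0.52 as the mean of both its probe sets. On their brightest probe sets Ifnar1 differed by 0.12 ± 0.13 and Ifnar2 by -0.04 ± 0.12. As the mean of their probe sets they differed by 0.32 and -0.32.

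Stat3, which carries interleukin 6 and interferon signals, was lower in calorie-restricted kidney on its brightest probe set. Its signals were 2359, 3911, 3145, 3649 and 3055 in control and 2263, 2274, 2248, 2049.6 and 2389 in restricted mice, overlapping only through control replicate 1. Calorie restricted minus control, the log2 difference was -0.50 ± 0.12 (adjusted p = 0.0345), and a second tested probe set gave -0.36 ± 0.15 (adjusted p = 0.149). The other probe sets, too dim to test, gave 0.58 and 0.98, and the mean over all of them turned the direction, at 0.17 (adjusted p = 0.649). Socs3, a STAT3-induced inhibitor of cytokine receptors, fell with signals of 827, 734, 639.6, 1294 and 1351 in control and 639, 676, 431, 487 and 455 in restricted kidney. This gave a log2 difference of -0.81 ± 0.21 (adjusted p = 0.0415), and another of its probe sets, whose groups did not overlap, gave -0.85 ± 0.23 (adjusted p = 0.0475).

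Jak1, the kinase shared by all interferon receptors, was lower on its brightest probe set by -0.51 ± 0.14 (adjusted p = 0.0492), with signals of 1974, 2174, 2109, 1806 and 1873 in control and 1135, 1121, 1338, 1617 and 1899.6 in restricted kidney. The lowest values were those of restricted replicates 1 to 3, the arrays with the high 3′/5′ ratio. Replicates 4 and 5 alone gave -0.07, and the other tested Jak1 probe sets gave 0.04 ± 0.12 and 0.83 ± 0.25 and did not pass. The mean over its probe sets was 0.12 (adjusted p = 0.504).

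Irf5, a factor that acts downstream of Toll-like receptors, rose from 216, 316, 251, 285 and 339.9 to 367, 504, 436, 397 and 364, with no overlap. Between the diets the log2 difference was 0.56 ± 0.15 (adjusted p = 0.0466), and a second tested probe set gave -0.01 ± 0.16. Ticam1, the adaptor TRIF of Tlr3 signalling, rose from 376, 380.3, 298, 364 and 455 to 579, 621, 532, 511 and 459.9, again without overlap. On the log2 scale the difference was 0.53 ± 0.14 (adjusted p = 0.0370), and replicates 4 and 5 alone gave 0.25. Oasl1, an interferon-induced protein that limits Irf7 translation, rose from 205, 226, 258, 314 and 230.1 to 457, 359.7, 389, 380.4 and 439.8. All restricted mice were above all controls, and the log2 difference was 0.73 ± 0.14 (adjusted p = 0.0198), with 0.60 in replicates 4 and 5 alone.

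These calls lay near the threshold. Oasl1 passed in 8 of the 10 limma fits that left out 1 array, with an adjusted p of 0.0529 without calorie-restricted replicate 1 and 0.053 without control replicate 2. Stat3, Socs3, Irf5 and Ticam1 each passed in 3 of those 10 fits and Jak1 in 2. After adjustment for the 3′/5′ ratio, a fit that called 9 probe sets in all, none of the 6 passed. The differences there were 0.63 for Oasl1 (limma adjusted p = 0.205), -0.53 for Stat3, -1.28 for Socs3, 0.44 for Irf5, 0.34 for Ticam1 and -0.12 for Jak1. Of the 6, Socs3 alone passed between replicates 4 and 5 of each group, a limma fit with 2 arrays per group (difference -1.49, adjusted p = 0.00711). Those control arrays had the highest Socs3 signals of the controls, 1294 and 1351. With restricted replicates 4 and 5 set against all 5 controls, the Socs3 difference was -0.98 and did not pass (limma adjusted p = 0.284).

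**Figure D5:**
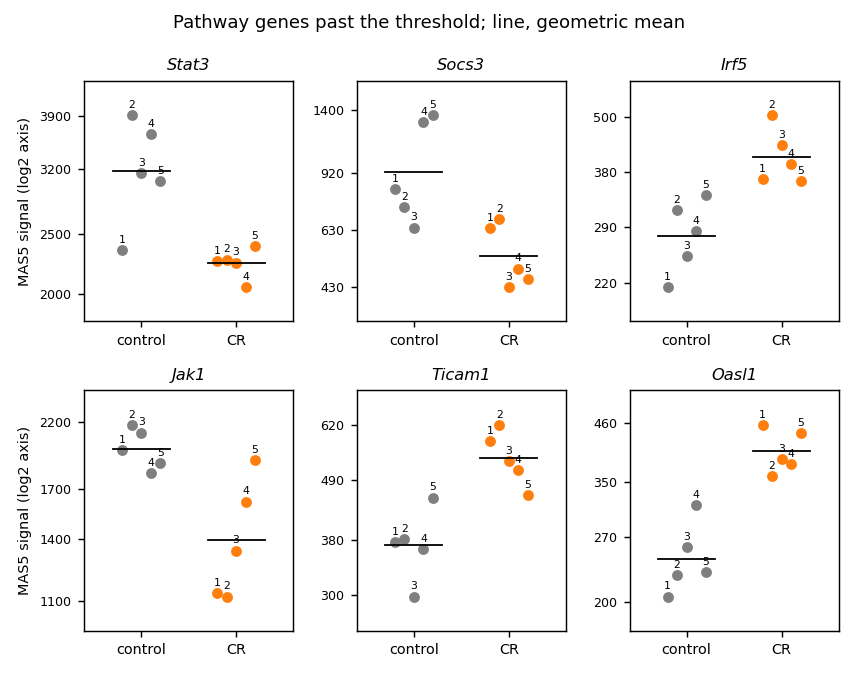
MAS5 signal (y axis, log2 scale) on each control and calorie-restricted (CR) array for the 6 pathway genes outside the set that passed the limma threshold; points carry the replicate number and lines mark the geometric mean. Irf5, Ticam1 and Oasl1 do not overlap between the diets, whereas Stat3, Socs3 and Jak1 overlap in 1 or more mice.

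The cell types present bear on a bulk kidney, in which fewer cells of a type and less RNA per cell cannot be told apart. Tubule markers were bright on every array, with Slc34a1 at 19474 or more and Umod at 22090.2 or more, and 8 of 10 tested proximal tubule markers were higher in calorie-restricted kidney (median log2 difference 0.38, or 0.15 with quantile normalization). Of 16 tested macrophage and monocyte markers, 6 were lower and 0 higher, with a median difference of -0.63 over the 17 measured. Their summed signal was 26947 to 48337 in control and 18879.9 to 31437 in restricted kidney. Of 10 tested endothelial markers 0 passed by limma, with 5 lower at an unadjusted p under 0.05 and a median difference of -0.24. Of plasmacytoid dendritic cell markers, the cells known for making type I interferon, 1 of 4 was tested and did not pass, and their summed signal was 189 to 405 in control and 259.5 to 439.8 in restricted kidney. Of 6 tested B and plasma cell markers 1 was lower (median -0.68 over 8 measured), of 5 tested podocyte markers 2 were lower (median -0.35), and of 5 tested neutrophil markers none passed by limma, with 2 lower at an unadjusted p under 0.05 (median -0.44 over 7 measured). Among all tested genes, 3.08% were higher and 3.02% lower at the limma threshold, and 13.8% were lower at an unadjusted limma p under 0.05. The part of cell composition in the member differences was not tested.

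Calorie-restricted replicates 2 and 4 had mean log2 deviations of the macrophage markers of -0.29 and -0.33, within the range of -0.47 to 0.14 over the 5 restricted mice. For T and natural killer cell markers the deviation was 0.54 in replicate 2 and 0.09 in replicate 4, with 4 of their 11 measured genes bright enough to test. The summed signal of B and plasma cell markers was 16115 in replicate 4 and 2154 to 6144 in the other restricted mice. It was 7707 to 21228 in the controls. Most of the sum in replicate 4 was Jchain, a plasma cell gene, at 14331 there and at most 4710 in the other restricted mice. The mean log2 deviation of the list was 0.16 in replicate 4 and -0.83 to 0.0 in the other restricted mice. Among the restricted mice, Mzb1 was also highest in replicate 4, at 933.6 against 802.9 in replicate 3. Pou2af1 and Tnfrsf17 were highest there by a narrow margin only. Pou2af1 was 225.7 against 224.0 in replicate 3, and Tnfrsf17 was 103.7 against 102.6 in replicate 1. Cd79a, Cd79b and Ms4a1 were not highest in replicate 4, at 160.3, 89.5 and 123.3 against 164.4, 142.9 and 174.7 in replicate 3. Pax5 was lowest in replicate 4. The part of these cells in the peaks of replicate 4 was not tested.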

How the data were processed

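The authors deposited MAS5 signals, an intensity per probe set on a linear scale, and the submitters' processing notes name Affymetrix Expression Console as the software, without a version. In the deposited intensity values the 2% trimmed mean was equal on all 10 arrays, so each array was scaled to a common level. Signals below 1 were set to 1 and log2 was taken. The table held 45101 probe sets, 64 of them controls, 34958 with 1 gene symbol and 932 with several, which were left unnamed. Probe sets whose mean log2 signal was at least the median, 6.81, were tested (22517). The test was 2-sided and used lmFit and eBayes with an intensity trend from limma 3.58.1 under R 4.3.3. The 5 arrays per group limit the precision, and p-values rest on the spread among these mice. Differences are log2, calorie restricted minus control, with limma's standard error.

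The members, roles, pathway and marker lists, and the alternatives were chosen with earlier results of these data known. Values on every array are given for members with non-overlapping groups, the smallest p and the brightest gene in each role, and the 3 widest ranges (Irf7, Gbp2 and Gbp3), and of the pathway lists for genes past the threshold; Ifit1 and the genes high in single mice were added after their values were seen. Replicate numbers did not pair the mice: the correlation of same-numbered deviations was -0.141 to -0.0872. The fit was checked on simulated data with independent noise for each value, which cannot show an effect of RNA quality shared by a whole array. Motifs were searched as text.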

Additional observations from a re-analysis of the deposited data

Results flagged for a closer look

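In 2 of 66 groups of 5 values a single mouse stood apart from the other 4 by Dixon's criterion, which chance meets in about 1 of 20 groups. Dhx58 was 231 in control replicate 4 and 75.7 to 101 in the other controls. Mx2 was 34.5 in calorie-restricted replicate 5 and 17.0 to 18.6 in the other restricted mice, all below the signal filter.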

How the results depend on the processing

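The fit called 1371 probe sets over the whole array, and this count was 2292 with array weights, 751 with quantile normalization, 287 with no filter and 243 without the intensity trend. It was 9 after adjustment for the 3′/5′ ratio, 198 with replicates 4 and 5 alone, 1 with restricted replicates 4 and 5 set against the 5 controls and 127 with the replicate block, which called no member. With 1 array left out it ran from 125 (control replicate 2) to 2481 (calorie-restricted replicate 5). Members called lower numbered 2 with array weights, 2 with median centring and 1 with the stricter filter, and 0 to 2 with 1 array left out. Members called higher numbered 0 to 1 with 1 array left out, the 1 being Ddx58 without calorie-restricted replicate 4 or Samd9l without control replicate 1. Calls also moved with calorie-restricted replicates 1 (226), 2 (172), 3 (327) and 4 (2105) and control replicates 3 (513), 4 (410) and 5 (776) left out; the cause was not tested. The median member difference ran from -0.03 to 0.19 over 19 settings. Ifit2 passed with array weights (adjusted p = 0.0352) and median centring (0.0401), and Irf1 with array weights (0.0441), median centring (0.0402) and the stricter filter (0.0476). Over all 33 measured members, uncalled differences changed sign in 3 with quantile normalization, 3 with median centring, 4 as the mean of probe sets, 8 after the 3′/5′ adjustment and 9 in replicates 4 and 5 alone, 13 different genes in all. Among the members given on every array there were 4. Gbp3 was -0.03 with array weights, -0.05 with median centring, -0.04 after the 3′/5′ adjustment, -0.01 in replicates 4 and 5 alone, and -0.12 to 0.30 with 1 array left out. Igtp was 0.05 with restricted replicates 4 and 5 set against the 5 controls, 0.05 after the 3′/5′ adjustment, 0.11 in replicates 4 and 5 alone, and -0.22 to 0.02 with 1 array left out. Trim25 was -0.03 after the 3′/5′ adjustment and -0.07 in replicates 4 and 5 alone. Ifi35 was -0.11 as the mean of its probe sets, -0.09 after the 3′/5′ adjustment and -0.13 in replicates 4 and 5 alone. Median centring moved the median of all tested genes from -0.01 to -0.10 and that of the members from 0.07 to -0.03.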
